A study of Mus musculus with 2 samples.

Results

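Adventitial fibroblasts were 464 of the 32445 lung cells kept in single-cell RNA sequencing of mice given silica, the dust behind the scarring lung disease silicosis. They were chosen by detection of marker genes: a cell had at least 1 read of 2 or more of *Pi16*, *Has1*, *Scara5* and *Apod*, and of 2 or more of *Col14a1*, *Cygb*, *Serpinf1*, *Ccl11* and *Lum*. Of the 464 cells, 232 were among 15218 cells from mice without the chemokine receptor gene *Ccr2* (CCR2-/-, here CCR2KO) and 232 among 17227 cells from wild-type (WT) mice. Both groups were on the C57BL/6 background and both received silica into the trachea at 400 mg/kg, so no lung here was untreated. Whole lungs were taken 3, 7 and 21 days later, digested, and stained as suspensions with hashtags, antibodies that carry a DNA barcode. The suspensions of a genotype were pooled into 1 microwell library, with 8 hashtagged suspensions (tags) in CCR2KO and 9 in WT.

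Adventitial fibroblasts lie in the connective tissue cuffs around the larger airways and vessels. They are known for a collagen- and proteoglycan-rich matrix, for the surface glycoprotein CD34, and for interleukin 33 and chemokines that act on lymphoid and myeloid cells housed in the cuff. Alveolar fibroblasts, the other main resident kind, lie in the thin walls between air spaces beside the epithelium. CCR2 is the receptor for the chemokine CCL2 and its relatives, and is known for letting inflammatory monocytes leave the bone marrow and enter injured tissue.

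Each tag gave between 15 and 41 adventitial fibroblasts in CCR2KO and between 17 and 38 in WT. The summed reads of these cells lay between 1633258 and 3284591 per tag in CCR2KO and between 1750146 and 3612041 in WT. The labels tie no tag to an animal or a day, so days were not compared, and each p-value measures the spread between tagged suspensions. That spread may be technical, and it may also hold differences between animals or days, which cannot be told apart here. Genotype and cartridge cannot be told apart, since each genotype had its own library. Over all cells of a tag, *Ccr2* had 1.40 to 4.36 CPM in CCR2KO tags and 52.8 to 100 CPM in WT tags, which did not overlap. CPM is a gene's read count scaled to the same total in every tag. The sources used here do not give the deleted part of *Ccr2*, so its remaining reads check the labels only in part. No cell index of an adventitial fibroblast occurred in both libraries, whereas 291 indices of all kept cells did.

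The genes of the rule describe how the cells were picked and are given with no test. From here on, CPM is taken over the summed reads of a tag's adventitial fibroblasts, unless other cells are named, and levels are compared between groups and not between genes. Levels of single genes per tag were also scaled by edgeR's normalization factors. Marker list sums in the text and levels pooled over cells were not. *Pi16*, a secreted protein that marks fibroblasts of vascular and airway cuffs in many organs, had a lowest, median and highest level of 368, 969 and 1403 CPM over CCR2KO tags and of 405, 737 and 1390 CPM over WT tags. *Scara5*, a ferritin receptor, had 252, 330 and 549 CPM over CCR2KO tags and 93.3, 255 and 280 CPM over WT tags. *Col14a1*, a collagen that sits on fibril surfaces, had 838, 945 and 1271 CPM over CCR2KO tags and 392.1, 675 and 880 CPM over WT tags. The tags of the genotypes overlapped for each of the 9 genes. *Cygb*, a globin of fibroblasts, was detected in the largest share of cells, with 94.4% in CCR2KO and 95.3% in WT. *Ccl11*, the eosinophil attractant eotaxin, and *Lum*, the proteoglycan lumican, were each detected in 48.7% of CCR2KO cells, against 53.9% and 52.2% of WT cells.

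The cells differed in how firmly the rule took them in. Of the 4 genes of the first set, 211 cells had reads of 2, 179 of 3 and 74 of all 4. Of the 5 genes of the second set, 75 cells had reads of 2, 118 of 3, 160 of 4 and 111 of all 5. The 54 cells just inside the rule, with 2 of each set, held 3279 CPM of decorin (*Dcn*), the proteoglycan that coats collagen fibrils, and 81.5% of them had a read of it. The 232 cells with at least 3 of each set held 10869 CPM of *Dcn*. Just outside the rule, 447 cells with 1 gene of the first set and at least 2 of the second held 2660 CPM of *Dcn*. A further 51 cells with at least 2 of the first set and 1 of the second held 1712 CPM. Alveolar fibroblasts held 440.3 CPM and kept cells that were no fibroblasts 28.4 CPM, so *Dcn* was lower step by step from well inside the rule to outside it. Other markers were higher in the 447 cells than just inside the rule: *Mfap5*, a microfibril protein, had 738 CPM just inside and 793 CPM in the 447 cells, *Clec3b*, a plasminogen-binding lectin, 118 and 132 CPM, and *Il33* 115 and 190 CPM. In the 51 cells these genes were lower, at 527 CPM of *Mfap5*, 99.9 CPM of *Clec3b* and 72.7 CPM of *Il33*.

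Checked against markers outside the rule, the cells carried most genes of their label. All 464 had reads of at least 2 of the collagen genes *Col1a1*, *Col1a2* and *Col3a1*. Of 20 further genes known from adventitial or pan-tissue fibroblasts, 12 were detected in at least 50% of the cells, among them *Dcn* in 97.6%, *Ly6a* in 91.2%, *Mfap5* in 88.4% and *Clec3b* in 86.2%. The other 8 fell short of that share. The least detected were *Efhd1* in 0.647% of cells, *Opcml* in 6.03% and *Dpp4*, a peptidase often used beside *Pi16*, in 6.90%. Detection also depends on depth, with a median of 77784 reads per cell here and 47573 in alveolar fibroblasts. *Mfap5* had 1056 CPM here and 506 CPM in alveolar fibroblasts, and *Clec3b* 475 and 88.8 CPM. *Ly6a* had 1588 CPM here and 1618 CPM in cells that were no fibroblasts, so it did not set the cells apart from those. The label overlapped with its neighbour: 130 of the 464 cells also had at least 3 of 7 alveolar fibroblast genes. *Inmt*, a methyltransferase of alveolar fibroblasts, was detected in 65.9% of the cells, with 73.3% in CCR2KO and 58.6% in WT. The 7 alveolar genes summed to a median of 1180 CPM over CCR2KO tags (847 to 1749). Over WT tags the median was 645 CPM (391 to 1512). None of the 5 tested between genotypes was called, with a median log2 change of 0.68. The part of this overlap in the genotype differences given below was not tested.

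Reads of other lineages were present and differed between tags. *Sftpc*, the surfactant protein of alveolar type 2 cells, had at least 1 read in 96.8% of adventitial fibroblasts at 908 CPM, in 92.8% of alveolar fibroblasts at 8777 CPM, and in 76.5% of cells that were no fibroblasts. In all, 312 cells had at least 2 reads of 2 or more genes of 1 other lineage, and 68 had at least 2 reads of *Ptprc*, *Epcam* or *Pecam1*, which mark leukocytes, epithelium and endothelium. The 8 macrophage and monocyte genes summed to 45.9, 397 and 3302 CPM (lowest, median and highest) over CCR2KO tags and to 52.0, 1224 and 3570 CPM over WT tags. The 6 endothelial genes summed to 8.31, 25.5 and 185 CPM over CCR2KO tags and to 41.5, 91.7 and 302.7 CPM over WT tags. The 6 alveolar epithelial genes summed to 186, 332 and 2853 CPM over CCR2KO tags and to 137, 226 and 6448 CPM over WT tags. The genotypes overlapped in each of these lists, with higher medians in WT for macrophage and endothelial genes. Neutrophil genes summed to at most 581 CPM in a CCR2KO tag and 499 CPM in a WT tag, and lymphocyte genes to at most 67.4 CPM in a CCR2KO tag and 37.7 CPM in a WT tag. Mesothelial genes summed to at most 22.8 CPM in a CCR2KO tag and 40.0 CPM in a WT tag, and their defining gene *Wt1* had no read. Of 8 smooth muscle and pericyte genes, 6 were detected in under 5% of cells.

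Adventitial fibroblasts were a small share of the lung cells recovered, and the genotypes could not be told apart by it. They were 0.819%, 1.53% and 2.16% of kept cells (lowest, median and highest) over CCR2KO tags, with a mean of 1.52% ± 0.387 (SD, n = 8). Over WT tags they were 0.878%, 1.34% and 2.07%, with a mean of 1.36% ± 0.376 (SD, n = 9). The tags overlapped over nearly their whole range, and the difference of 0.163 percentage points was not larger than the spread between tags (two-sided exact permutation test, p = 0.389). The smallest p this design allows is 8.227e-05. Pooled over tags, the share was 1.52% in CCR2KO and 1.35% in WT. Among fibroblasts alone, the mean share was 3.91% in CCR2KO tags and 3.32% in WT tags (exact p = 0.271). A rule based on detection depends on depth, and the median adventitial fibroblast had 70962 reads in CCR2KO and 86819 in WT. With every cell thinned to 5000 reads before the rule, the shares were 1.06% in CCR2KO and 0.772% in WT, a difference of 0.287 percentage points (exact p = 0.0517).

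**Figure D1:**
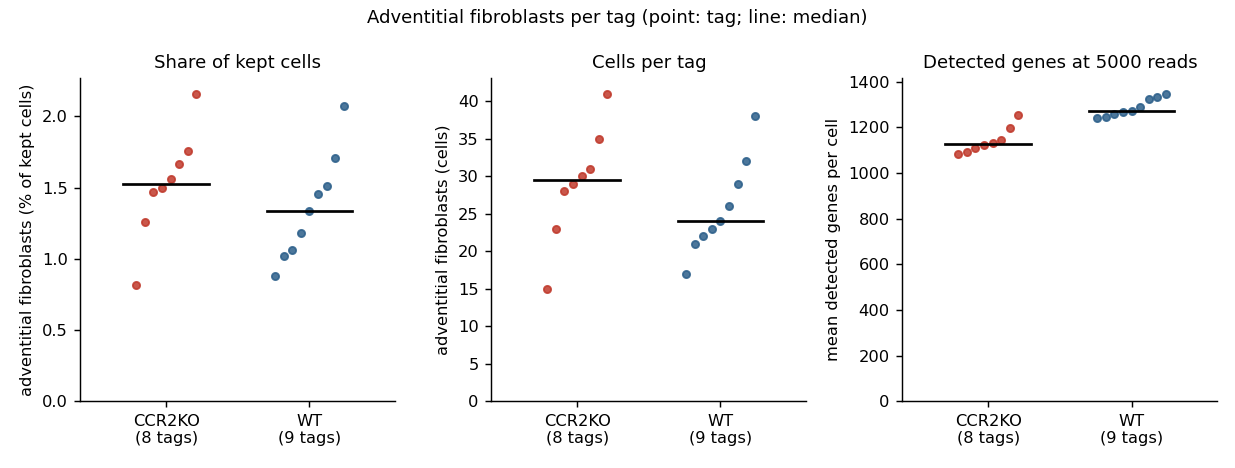
Share of kept cells that were adventitial fibroblasts (percent), adventitial fibroblasts per tag (cells) and mean detected genes per adventitial fibroblast at 5000 reads, for 8 CCR2KO and 9 WT tags. Points are tags and lines are medians; shares and cell numbers overlapped, while detected genes were lower in CCR2KO tags (1083 to 1251) than in WT tags (1242 to 1346) with a small overlap.

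CCR2KO adventitial fibroblasts showed fewer different genes per cell at an equal number of reads. Thinned to 5000 reads, a cell had a mean of 1141 ± 56.6 detected genes in CCR2KO tags (SD, n = 8) and 1286 ± 38.9 in WT tags (SD, n = 9), a difference of -145 genes (exact permutation p = 0.000247). At 10000 reads the difference was -221 genes (exact p = 0.000165). Reads are not molecules: the median nonzero count per gene and cell was 11 in the CCR2KO library and 9 in the WT library, so the number of molecules was not matched. The macrophage and endothelial marker sums also had lower medians in CCR2KO tags, as given above, and the part of either in the difference was not tested.

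Set beside 3657 alveolar fibroblasts of the same tags, adventitial fibroblasts differed in single genes of several roles. Alveolar fibroblasts here were kept cells outside the rule with at least 2 of the 3 collagens and at least 3 of *Npnt*, *Ces1d*, *Slc7a10*, *Fgfr4*, *Inmt*, *Tcf21* and *Limch1*. This contrast is the one the rule was built on, so its values are a description and no test is read from them. Of 12362 genes compared, 846 (6.84%) passed an adjusted p under 0.05 in edgeR's quasi-likelihood test as higher in adventitial fibroblasts and 2084 (16.9%) as lower, and 254 (2.05%) were higher in all 17 tags. Another 255 were lower in all 17 tags. The median log2 difference over all genes was -0.54, and the list medians below are to be read against it. Levels in this comparison were scaled over both kinds together and so differ slightly from those given above.

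Several matrix genes differed widely. In all 17 tags, 3 of 8 small leucine-rich proteoglycan genes were higher and none lower, with a median log2 difference of 1.22, as were 6 of 12 metalloproteinase and inhibitor genes, with a median of 0.88. Of 15 elastic fibre genes, 3 were higher and 1 lower in all tags, with a median of 0.37. Among all 12362 genes, 254 (2.05%) were higher and 255 lower in all tags. *Dcn* had 6142, 9213 and 13770 CPM (lowest, median and highest of 17 tags) in adventitial fibroblasts and 157, 399.6 and 719 CPM in alveolar fibroblasts. Its log2 difference was 4.61 ± 0.13 (SE), and no adventitial tag came near any alveolar tag. *Fbln2*, a fibulin of elastic fibres and basement membranes, had 112, 248 and 410.4 CPM in adventitial and 10.5, 24.3 and 60.9 CPM in alveolar fibroblasts. *Col15a1*, a collagen at basement membrane borders, differed by 2.96 on the log2 scale, the proteoglycan gene *Aspn* by 2.61, and the fibulin gene *Fbln1* by 2.06, each higher in 17 of 17 tags. The protease inhibitors *Timp1* and *Timp3* were higher by 1.46 and 1.44, and the metalloproteinases *Mmp23* and *Adamts5* by 2.79 and 2.24, all in 17 of 17 tags. Other matrix genes lay on the opposite side. *Tnc*, the injury-associated glycoprotein tenascin C, had 1.17, 19.6 and 198 CPM in adventitial and 76.6, 181 and 296 CPM in alveolar fibroblasts. Fibronectin (*Fn1*) had 345, 743 and 1341 CPM in adventitial and 1043, 1727 and 2459 CPM in alveolar fibroblasts, and *Mfap4*, a microfibril protein, differed by -1.08. *Tnc*, *Fn1* and *Mfap4* were lower in adventitial fibroblasts in all 17 tags.

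Signals to leukocytes included genes far higher in adventitial fibroblasts, but the lists as a whole were mixed. Of 3 genes listed as CCR2 ligands, 2 were higher in all tags, with a median log2 difference of 2.04. Of 9 other chemokine genes, 2 were higher and none lower in all tags, with a median of -0.22. Of 7 colony stimulating factor and type 2 cue genes, 1 was higher and 1 lower, with a median of 0.21. All genes compared had a median of -0.54, with 2.05% higher in all tags. Interleukin 6 (*Il6*), an inducer of the acute phase response, had 1246, 2241 and 4381 CPM in adventitial and 231, 424 and 935 CPM in alveolar fibroblasts, and interleukin 33 (*Il33*), an alarmin that activates type 2 lymphoid cells, had 351, 666 and 1246 CPM in adventitial and 37.9, 86.7 and 185 CPM in alveolar fibroblasts. For both genes the lowest adventitial tag lay above the highest alveolar tag. Among the ligands of CCR2, *Ccl2* had 405, 1012 and 2119 CPM in adventitial and 84.0, 359.5 and 547 CPM in alveolar fibroblasts, with partly overlapping ranges. *Ccl8*, which was listed with them, was higher by 3.89 ± 0.40 on the log2 scale in 17 of 17 tags, and *Ccl7* by 2.04 ± 0.22 in 16. Whether mouse CCL8 acts on CCR2 was not examined here. Some chemokines that guide lymphocytes were also higher, with log2 differences of 2.94 for *Ccl19* and 1.43 for *Cxcl12* in all 17 tags and of 3.12 for *Cxcl13* in 15. *Ptgs2*, the inducible prostaglandin synthase, differed by 2.34 and the neutrophil attractant *Cxcl1* by 1.86, each in 17 of 17 tags.

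The 18 inflammatory fibroblast genes did not all lie on the same side. Of the 17 compared, 4 were higher and 2 lower in adventitial fibroblasts in all tags, with a median log2 difference of 0.25. All genes compared had a median of -0.54, with 254 of 12362 higher and 255 lower in all tags. The lower ones were *Lcn2*, the iron-sequestering protein lipocalin 2, at 86.1, 254 and 644 CPM in adventitial and 903, 1454 and 2867 CPM in alveolar fibroblasts, and haptoglobin (*Hp*), with a log2 difference of -3.24. The acute phase gene *Saa3* was lower in 16 of 17 tags (-1.17). *Sftpc* was also at the higher level in alveolar fibroblasts, as given above. The part of other-lineage reads in these differences was not tested. Complement genes leaned to the higher side in adventitial fibroblasts. Of 12 compared, 7 were higher in all tags, with a median log2 difference of 1.22. They included *C3*, the central component, with 1815, 3126 and 6415 CPM in adventitial and 569, 1119 and 1804 CPM in alveolar fibroblasts. *Cfb*, factor B of the alternative pathway, was higher by 1.97, and the classical pathway proteases *C1ra* and *C1s1* by 1.49 and 1.56.

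Single retinoid and growth factor genes differed widely, while most members of their lists did not differ in all tags. Of 13 retinoid, lipid and steroid genes, 5 were higher and 2 lower in all tags, with a median log2 difference of 0.22. Of 14 PDGF and IGF genes, 2 were higher and 1 lower, with a median of 0.76. Of 12 growth factor genes for vessels and epithelium, none was higher and 1 lower, with a median of -0.22. All genes compared had a median of -0.54, with 254 of 12362 higher and 255 lower in all tags. The retinoic acid synthesizing enzymes were split: *Aldh1a2* had 72.4, 328 and 668 CPM in adventitial and 0, 3.57 and 25.4 CPM in alveolar fibroblasts, whereas *Aldh1a1* had 14.5, 81.4 and 303.96 CPM in adventitial and 349.8, 528 and 754 CPM in alveolar fibroblasts. *Aldh1a3* was detected in 13.4% of adventitial fibroblasts and had 6.71, 41.9 and 183 CPM there, against 0, 0 and 11.4 CPM in alveolar fibroblasts. The ranges of *Aldh1a2* and *Aldh1a1* did not overlap between the kinds. *Sfrp4*, a secreted binder of WNT proteins, had 9.16, 105 and 284 CPM in adventitial and 0, 0 and 1.49 CPM in alveolar fibroblasts, and it was found in 20.3% of adventitial cells. *Igfbp4*, which binds insulin-like growth factors, had 3044, 3984 and 6553 CPM in adventitial and 325, 660.3 and 986 CPM in alveolar fibroblasts. *Igf1* itself was higher by 1.10 in 16 of 17 tags. The epithelial growth factor *Fgf10* was lower in adventitial fibroblasts in 15 tags (-2.16), and *Bmp5* and the vessel ligand *Angpt1* were lower in all 17 (-2.07 and -1.16).

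**Figure D2:**
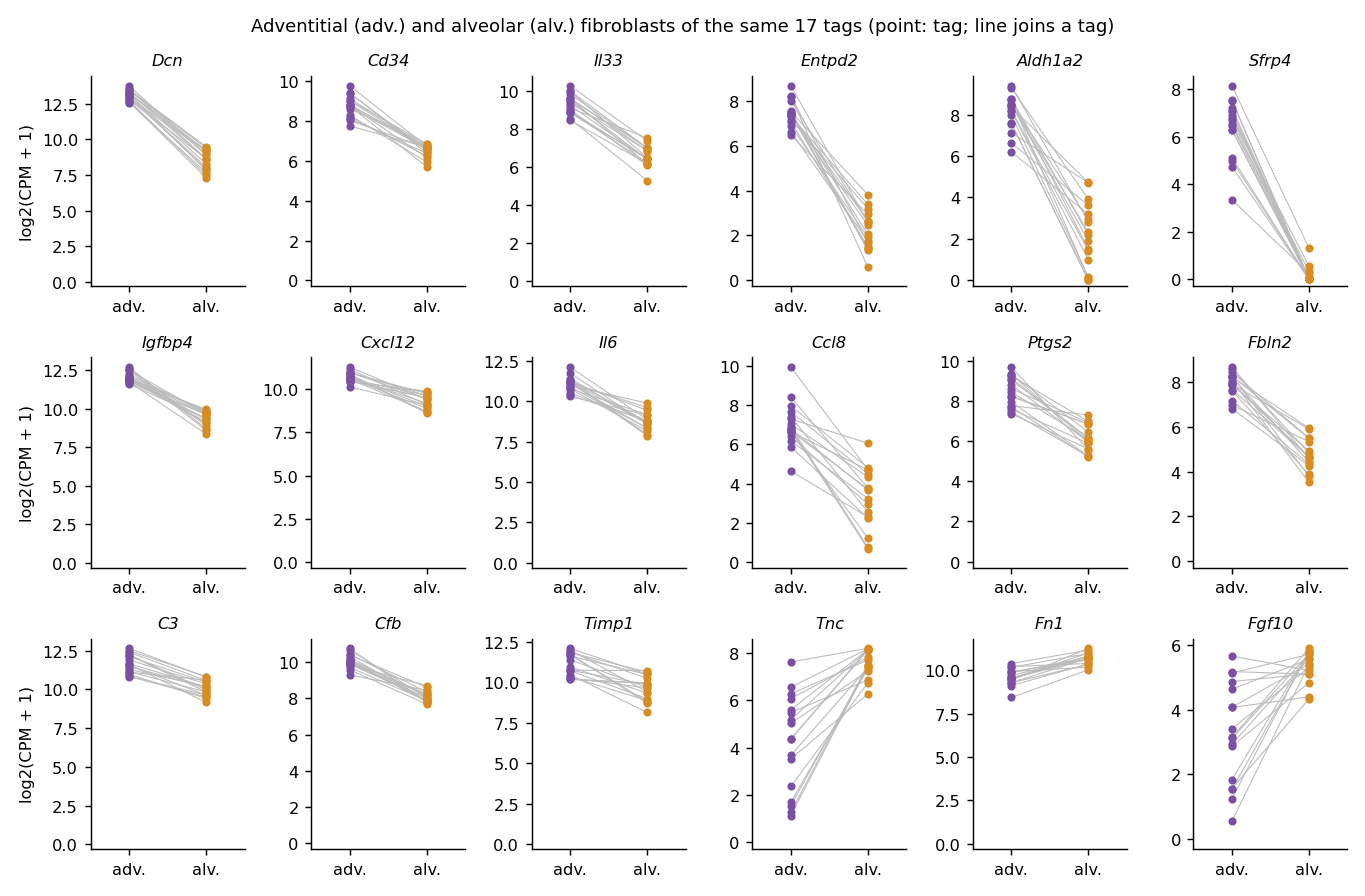
Levels of 18 genes as log2(CPM + 1) in adventitial fibroblasts (left, purple) and alveolar fibroblasts (right, orange) of the same 17 tags, with a line joining each tag. *Dcn*, *Il33*, *Il6*, *Igfbp4* and *Aldh1a2* lay higher in adventitial fibroblasts in every tag, and *Tnc* and *Fn1* lower in every tag.

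By size alone, the 12 leading genes higher in adventitial fibroblasts were *Sfrp4*, *Aldh1a3*, *Aldh1a2*, *Shisa3*, *Prg4*, *Dio2*, *Entpd2*, *Scara3*, *Itih5*, *Dcn*, *Adgrd1* and *Ptx3*, with log2 differences from 9.93 to 4.35, each higher in 17 of 17 tags. *Entpd2* is an ectonucleotidase, *Prg4* the lubricating proteoglycan of joints, *Dio2* the enzyme that activates thyroid hormone and *Ptx3* a soluble pattern-recognition molecule. The 12 leading genes on the other side were *Scgb3a2*, *Scube2*, *Scgb1a1*, *Upk1b*, *Krt7*, *C6*, *S100g*, *Cyp4b1*, *Gm4956*, *Nebl*, *Krt8* and *Retnla*. Several of them, such as the club cell secretoglobins and the keratins, are transcripts of lung epithelium, and *Sftpc* was also at the higher level in alveolar fibroblasts given above; its part in these differences was not tested. Among genes at 10 times the level of non-fibroblasts or more, a limit chosen after the values were seen, *Cdo1*, *Col13a1* and *Itga8* led in alveolar fibroblasts. *Col13a1*, a transmembrane collagen, had 0, 7.25 and 61.8 CPM in adventitial and 118, 162 and 198 CPM in alveolar fibroblasts, with no overlap. Of the 20 adventitial or pan-tissue genes, 19 passed the filter on low counts and 12 were higher in all tags, with a median log2 difference of 2.099. *Dpp4* was the clearest exception, higher in 2 of 17 tags with a log2 difference of -2.65.

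Within the adventitial fibroblasts, *Col1a2*, *Dcn* and *Mgp*, taken as examples of matrix genes, varied little from tag to tag. Some other genes, several of them read in few cells, varied widely. The SD of log2(CPM + 1) over tags, averaged over genotypes, was 0.231 for *Col1a2*, 0.255 for *Dcn* and 0.203 for the calcification inhibitor *Mgp*. By the same measure, the 12 most variable genes at 50 CPM or more were *S100a8*, *S100a9*, *Wfdc17*, *Ccl6*, *Clec4n*, *Ighm*, *H2-Ab1*, *Alox5ap*, *Cd52*, *Bcl2a1d* and *Ctss*, which are known from leukocytes, and *Esm1*. Marker reads of macrophages and neutrophils varied over the same tags, with the ranges given above, and their part in this spread was not tested. *Esm1*, the secreted proteoglycan endocan, had 0, 56.1 and 398 CPM over CCR2KO tags and 0, 28.9 and 90.7 CPM over WT tags. It was detected in 6.25% of cells, and a single cell held 38.1% of its CCR2KO reads.

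Among the 406 genes at 50 CPM or more and at 4 times the non-fibroblast level or more, a limit chosen after the values were seen, the most variable after *Esm1* were *C1qtnf3*, *Fgf23*, *Cxcl5* and *Cxcl13*. *Cxcl13*, the chemokine that gathers B cells, had 188, 600.4 and 3921 CPM over CCR2KO tags and 34.0, 1225 and 2823 CPM over WT tags. The genotypes overlapped over nearly the whole range, and the reads came from 21.6% of cells. *Fgf23*, a hormone of phosphate balance made mainly in bone, had 9.63, 81.7 and 252 CPM over CCR2KO tags and 0, 34.5 and 153 CPM over WT tags, from 12.3% of cells. *C1qtnf3*, a secreted relative of adiponectin, had 0, 46.1 and 114 CPM over CCR2KO tags and 0.783, 64.8 and 124 CPM over WT tags. In each of these genes low and high tags occurred in both genotypes. The 12 most variable of the 406 genes also held *Adamtsl2*, *Itih5* and the proteoglycan gene *Prg4*, so matrix genes were not all steady.

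**Figure D3:**
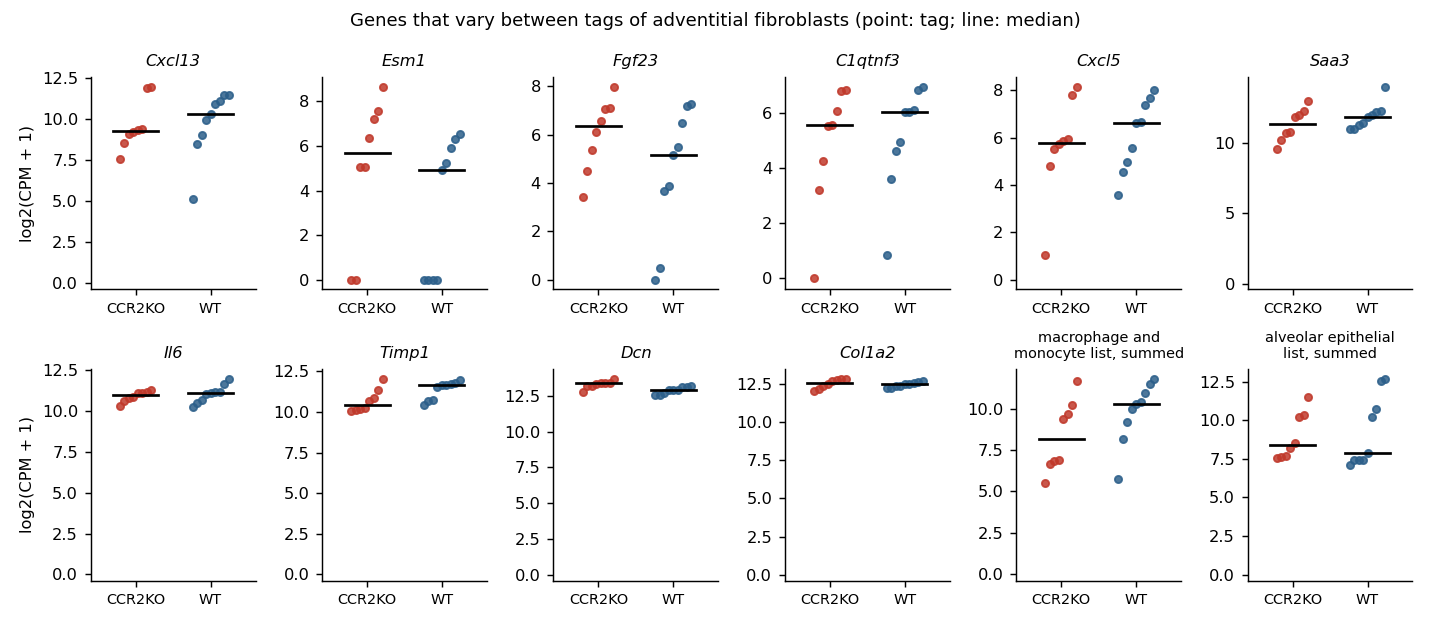
Levels as log2(CPM + 1) over 8 CCR2KO tags (left) and 9 WT tags (right) for 10 genes and for the summed macrophage and epithelial marker lists in adventitial fibroblasts. The list sums drawn here were scaled by edgeR's normalization factors, unlike those in the text. Points are tags and lines are medians; *Cxcl13*, *Esm1*, *Fgf23* and *C1qtnf3* spread widely within both genotypes, while *Dcn* and *Col1a2* lay in narrow bands.

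Few genes differed between CCR2KO and WT adventitial fibroblasts; those higher in CCR2KO included matrix-associated and complement genes, and those lower included many genes of the ribosome. Of 9451 genes tested over tags, 41 (0.434%) passed an adjusted p under 0.05 in edgeR's quasi-likelihood test, 16 higher (0.169%) and 25 lower (0.265%) in CCR2KO, and 650 had an unadjusted p under 0.05. DESeq2 called 84 genes, with all 41 among them. The tags of the genotypes did not overlap for 33 of all genes tested (0.349%) and for 16 of the 41. With the 68 cells that had reads of *Ptprc*, *Epcam* or *Pecam1* left out, an alternative chosen after seeing the data, 8 genes were called, all among the 41. The 1 higher gene was the immunoglobulin *Igha*, so none of the matrix-associated or complement genes stayed called; the 7 lower ones were *Pwwp2a*, *Rn28s1*, *Rn45s*, *Rn18s*, *Rpl35*, *Rpl41* and *Rps28*. The macrophage list had the lower median in CCR2KO tags, as given above. Detected genes per cell had a lower mean there, with a small overlap between tags. The part of either in the calls was otherwise not tested. The median log2 change over all genes was 0.0007.

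Among matrix and secreted proteins, *Gsn*, the actin-severing protein gelsolin that also circulates in plasma, had 7040.0, 10009 and 12062 CPM over CCR2KO tags and 4349, 6125 and 7476 CPM over WT tags. All but 1 CCR2KO tag lay above every WT tag, and the log2 change was 0.73 ± 0.12 (SE, edgeR adjusted p = 0.00198). *Timp2*, an inhibitor of matrix metalloproteinases, had 1620.5, 2062 and 2395 CPM over CCR2KO tags and 1041, 1257 and 1761 CPM over WT tags, a log2 change of 0.59 ± 0.12 (edgeR adjusted p = 0.0191). *Fbln1*, an elastic fibre glycoprotein, had 626, 895 and 998 CPM over CCR2KO tags and 402, 492.9 and 715 CPM over WT tags, with a change of 0.68 ± 0.14 (edgeR adjusted p = 0.0195). For both genes 7 of 8 CCR2KO tags lay above every WT tag. *Efemp1*, the related fibulin 3, rose by 0.93 ± 0.20 on the log2 scale (edgeR adjusted p = 0.0374), and *Ecm1*, a secreted glycoprotein that binds matrix components, by 0.89 ± 0.17 (edgeR adjusted p = 0.0176). *Cilp*, a matrix protein known from cartilage, had 103, 135 and 201 CPM over CCR2KO tags and 15.7, 33.6 and 116 CPM over WT tags. Its change was 1.65 ± 0.33 (edgeR adjusted p = 0.0176), and 5 of 8 CCR2KO tags lay above every WT tag. Of 15 elastic fibre genes tested, *Fbln1* and *Efemp1* were called higher and none lower. A positive change was seen in 11 of the 15, and the median change was 0.28. Over all genes tested, 0.169% were called higher. The calls of *Gsn*, *Timp2*, *Fbln1*, *Ecm1* and *Cilp* held in all 17 fits that left out 1 tag, and that of *Efemp1* in 4. With the 68 cells that had *Ptprc*, *Epcam* or *Pecam1* reads left out, none of these was called: the changes and edgeR adjusted p were 0.51 and 0.0549 for *Gsn*, 0.45 and 0.290 for *Timp2*, 0.46 and 0.653 for *Fbln1*, 0.65 and 0.753 for *Efemp1*, 0.66 and 0.343 for *Ecm1*, and 1.25 and 0.612 for *Cilp*. With all 312 cells of other-lineage reads left out, which left 4 CCR2KO and 3 WT tags with at least 10 cells, the change of *Cilp* was -0.10.

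The fibrillar collagens did not share in this, and *Col14a1*, whose levels are given above, was not tested as a gene of the rule. None of 6 fibrillar collagen genes tested was called, and their median change was 0.05. *Col1a1* had 3823, 4976 and 6363 CPM over CCR2KO tags and 3886, 4636 and 6298 CPM over WT tags, and *Col3a1* had 5258, 7491 and 10393 CPM over CCR2KO tags and 5699, 7559.8 and 9154 CPM over WT tags, so the genotypes overlapped throughout. *Dcn* had 6842, 10488 and 13285 CPM over CCR2KO tags and 5919, 7582 and 9226 CPM over WT tags. Although 7 of 8 CCR2KO tags lay above every WT tag, its change of 0.43 ± 0.11 missed the threshold (edgeR adjusted p = 0.132). Elastin (*Eln*) had 502, 1491 and 2652 CPM over CCR2KO tags and 1438, 2426 and 3615 CPM over WT tags, which overlapped, with a change of -0.76 ± 0.22 (edgeR adjusted p = 0.240). No gene was called among 13 genes of activated scar fibroblasts, whose median change was 0.33. *Postn*, a matrix protein of such cells, had 0.966, 115 and 136 CPM over CCR2KO tags and 18.5, 39.2 and 182 CPM over WT tags.

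Of 11 complement genes tested, 2 were called higher in CCR2KO adventitial fibroblasts and none lower, 9 did not pass, and the median change was 0.50. The share called higher over all genes tested was 0.169%. *C4a*, given below, was not in this list. *C4b*, a component of the classical and lectin pathways, had 863, 1011 and 1383 CPM over CCR2KO tags and 444, 608 and 791 CPM over WT tags. The genotypes did not overlap, and the change was 0.78 ± 0.14 (edgeR adjusted p = 0.00785). The neighbouring gene *C4a* is nearly identical to *C4b*, so reads could be split between them; it rose by 0.83 ± 0.19 (edgeR adjusted p = 0.04995). *Serping1*, the inhibitor of the C1 proteases, had 1953, 3814 and 4417 CPM over CCR2KO tags and 1618, 2123 and 2916 CPM over WT tags, with 6 of 8 CCR2KO tags above every WT tag and a change of 0.67 ± 0.14 (edgeR adjusted p = 0.0252). *C3* had 2373, 4589 and 6189 CPM over CCR2KO tags and 1712, 2239 and 4284 CPM over WT tags. All 8 CCR2KO tags lay above the WT median, but its change of 0.79 ± 0.18 fell short of the threshold (edgeR adjusted p = 0.0553). The call of *C4b* held in all 17 fits that left out 1 tag, that of *Serping1* in 7 and that of *C4a* in 2. Without the 68 cells that had *Ptprc*, *Epcam* or *Pecam1* reads, no complement gene was called, with changes of 0.49 for *C4b* (edgeR adjusted p = 0.704), 0.47 for *Serping1* (edgeR adjusted p = 0.612) and 0.54 for *C4a*. Without the 312 cells of other-lineage reads, *C4b* and *C4a* were not called and their changes were -0.33 and -0.16.

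The other higher genes belonged to several roles. *Dkk3*, a secreted member of the Dickkopf family, was the 1 of 10 WNT pathway genes called, at 254, 342 and 545 CPM over CCR2KO tags and 121, 184 and 317 CPM over WT tags, a change of 0.87 ± 0.20 (edgeR adjusted p = 0.04995). *Herpud1*, which helps clear misfolded proteins from the endoplasmic reticulum, was the 1 of 12 genes of endoplasmic reticulum stress called, with a change of 0.97 ± 0.20 (edgeR adjusted p = 0.0229). That list had a median change of 0.11. The share called higher over all genes tested was 0.169%. *Heg1*, a membrane receptor known from vessel development, rose by 1.00 ± 0.20 (edgeR adjusted p = 0.0176), with 7 of 8 CCR2KO tags above every WT tag. *Tpst1*, an enzyme that sulfates tyrosines of secreted proteins, rose by 1.53 ± 0.35 (edgeR adjusted p = 0.0485), and *Fhl1*, a LIM domain protein, by 0.58 ± 0.13 (edgeR adjusted p = 0.04995). Left out 1 tag at a time, *Heg1* stayed called in all 17 fits, *Herpud1* in 13, *Fhl1* in 4, and *Dkk3* and *Tpst1* in 3 each. Without the 312 cells of other-lineage reads, the changes of *Fhl1* and *Tpst1* were -0.16 and -0.021. The remaining 2 of the 16 were the immunoglobulin genes *Igha* and *Igkc*, products of plasma cells. *Igha* had 9.47, 15.3 and 946 CPM over CCR2KO tags and 0.295, 1.72 and 2.04 CPM over WT tags, but 1 cell held 68.2% of its CCR2KO reads, and outside fibroblasts it differed by 8.43 in the same direction (edgeR adjusted p = 1.916e-06).

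**Figure D4:**
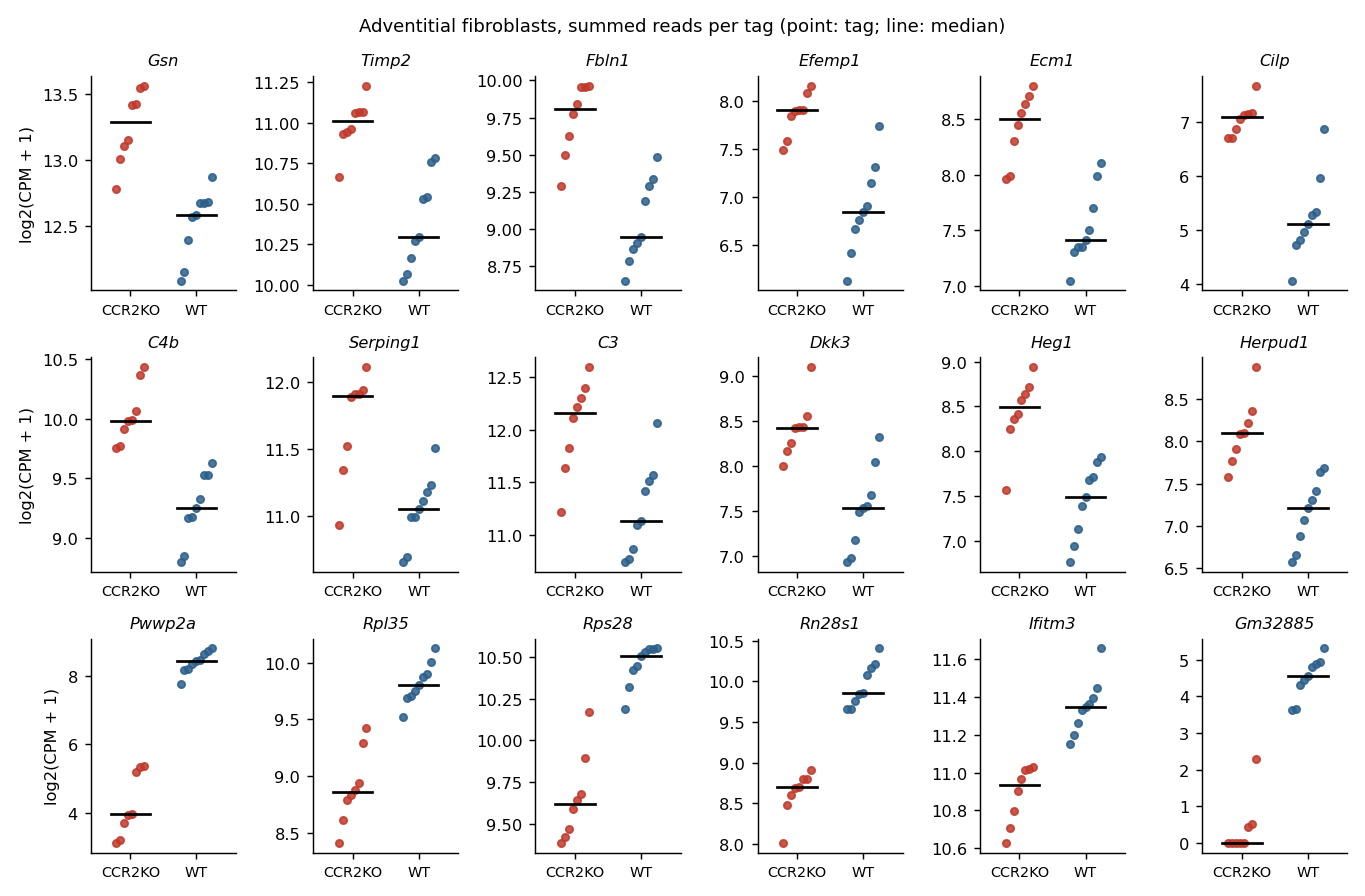
Levels as log2(CPM + 1) over 8 CCR2KO tags (left) and 9 WT tags (right) in adventitial fibroblasts for 18 genes, with axes that do not start at 0. Points are tags and lines are medians; *Gsn*, *Timp2*, *Fbln1* and *C4b* lay higher in CCR2KO, and *Pwwp2a*, *Rpl35*, *Rn28s1* and *Gm32885* lower with no overlap.

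None of the lists of chemokines, cytokines and inflammatory genes held a called gene; the myeloid chemokine gene *Ccl9*, in none of these lists, was called lower and is described with the lower genes. The 3 genes listed as CCR2 ligands that were tested had a median change of -0.55 and none was called. *Ccl2* had 376, 749.6 and 1066 CPM over CCR2KO tags and 481, 1109 and 2029.8 CPM over WT tags, which overlapped (change -0.55 ± 0.25, edgeR adjusted p = 0.651). *Ccl7* had 163, 534 and 738 CPM over CCR2KO tags and 276, 559 and 1238 CPM over WT tags. None of 17 inflammatory fibroblast genes was called, with a median change of 0.03: *Il6* had 1265, 2038 and 2489 CPM over CCR2KO tags and 1201, 2238 and 4096 CPM over WT tags. *Il33* had 451, 598 and 1168 CPM over CCR2KO tags and 347, 678 and 953 CPM over WT tags. In all, 29 of the 36 gene lists held no called gene, among them basement membrane, hyaluronan, growth factor, glycolysis and cell cycle genes.

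Interferon-induced genes lay mostly on the lower side. Of 25 tested, 5 had a positive change, and the median was -0.41, against 0.0007 over all genes, but only *Ifitm3* was called. *Ifitm3*, a membrane protein that blocks virus entry, had 1581, 1955 and 2091 CPM over CCR2KO tags and 2275, 2605 and 3231 CPM over WT tags. The genotypes did not overlap, and it fell by 0.47 on the log2 scale with an SE of 0.09 (edgeR adjusted p = 0.0176). *Isg15*, a ubiquitin-like protein induced by interferon, had 13.6, 58.1 and 138 CPM over CCR2KO tags and 101, 121 and 308.4 CPM over WT tags, with overlapping ranges and a change of -1.14 ± 0.38 (edgeR adjusted p = 0.399). In alveolar fibroblasts the same 25 genes had a median change of -0.72, with 3 called lower. In cells that were no fibroblasts their median change was -0.67, with 12 called lower. Over all genes tested, 0.265% were called lower in adventitial fibroblasts, 0.623% in alveolar fibroblasts and 4.03% in cells that were no fibroblasts.

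Genes of the ribosome made up much of the lower side. Grouped by symbol after the calls were seen, 12 of 83 cytosolic ribosomal protein genes were called lower and none higher, with a median change of -0.30. Over all genes tested, 0.265% were called lower. Tags of the genotypes did not overlap for 10 of the 83, against 0.349% of all genes tested. With the 68 cells that had *Ptprc*, *Epcam* or *Pecam1* reads left out, only *Rpl35*, *Rpl41* and *Rps28* of the 12 stayed called. *Rpl35* had 338, 462 and 687 CPM over CCR2KO tags and 732, 890.4 and 1116 CPM over WT tags, a change of -0.90 ± 0.14 (edgeR adjusted p = 0.00144). *Rps28* and *Rps29* changed by -0.78 ± 0.11 and -0.71 ± 0.10, and neither overlapped between genotypes. The ribosomal RNA genes were called lower too: *Rn28s1* had 257, 414 and 481 CPM over CCR2KO tags and 809, 931 and 1358 CPM over WT tags (change -1.34 ± 0.14, edgeR adjusted p = 8.542e-06). *Rn45s*, the precursor that contains the mature ribosomal RNAs and so shares sequence with them, changed by -0.69 ± 0.10, and *Rn18s* by -0.59 ± 0.11. Other cells showed the same direction. Of the 83 genes, 8 were called lower in alveolar fibroblasts, with a median of -0.13, and 24 in cells that were no fibroblasts, with a median of -0.11. Over all genes tested in non-fibroblasts, 2.55% were called higher and 4.03% lower.

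Further genes called lower were *Ybx1*, an RNA-binding protein (-0.61), the surface protein gene *Cd99* (-0.68), *Snrpf* of the spliceosome (-1.02) and *Atp5mpl* of the mitochondrial ATP synthase (-0.72). *Ly6c2* and *Ccl9*, a monocyte surface antigen and a myeloid chemokine, changed by -5.38 ± 0.96 and -4.81 ± 1.00. *Ly6c2* had 0.483, 2.84 and 8.03 CPM over CCR2KO tags and 4.04, 37.6 and 714 CPM over WT tags, and 1 cell held 49.0% of its WT reads. *Ly6c2* is nearly identical to its neighbour *Ly6c1*, so reads could be split between them. Neither gene passed the filter on low counts once cells with *Ptprc*, *Epcam* or *Pecam1* reads were left out.

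*Pwwp2a* had the clearest difference between genotypes in adventitial fibroblasts. It encodes a chromatin protein that binds nucleosomes holding the histone variant H2A.Z, and lies at chr11:43681998-43721491 on the plus strand (GRCm38). It had 7.65, 14.4 and 40.1 CPM over CCR2KO tags and 215, 344 and 443 CPM over WT tags. The lowest WT tag was above the highest CCR2KO tag, and reads were found in 32.3% of CCR2KO cells and 91.8% of WT cells. The change was -3.99 ± 0.34 (edgeR adjusted p = 2.852e-07), and with cells that had *Ptprc*, *Epcam* or *Pecam1* reads left out it was -4.30 (edgeR adjusted p = 5.189e-06). In alveolar fibroblasts *Pwwp2a* had 14.4, 28.7 and 45.0 CPM over CCR2KO tags and 54.6, 79.2 and 116 CPM over WT tags, a change of -1.52 ± 0.21 with no overlap. In cells that were no fibroblasts the change was -0.26 (edgeR adjusted p = 0.0955). *Gm32885*, a long intergenic noncoding RNA gene, also did not overlap, with 0, 0 and 3.87 CPM over CCR2KO tags and 11.4, 22.7 and 38.7 CPM over WT tags, and reads in 1.29% of CCR2KO cells and 57.8% of WT cells. Its change was -5.25 ± 1.08 (edgeR adjusted p = 0.0216), a fitted value that depends on the prior count because most CCR2KO tags had no read.

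The genotype differences of adventitial fibroblasts were mostly shared in direction with alveolar fibroblasts, and many were also called outside fibroblasts. All 41 called genes had the same sign there and 19 were called, 4 higher and 15 lower, where 0.346% of all genes were called higher and 0.623% lower. Of the 40 called genes also tested in cells that were no fibroblasts, 7 were called higher and 21 lower there, in the same direction as here. Over all genes tested in those cells, 2.55% were called higher and 4.03% lower. All these cells came from the same tags and libraries, so this is no independent check. *C4b* changed by 0.78 in adventitial and 0.71 in alveolar fibroblasts, *Herpud1* by 0.97 and 1.10, whereas *Gsn* changed by 0.73 and 0.20 and *Tpst1* by 1.53 and 0.00. Whether a change differed between the kinds was tested as an interaction over 13991 genes, and 1 gene (0.00715%) passed: *Pwwp2a*, whose change was lower by 2.63 on the log2 scale in adventitial fibroblasts (edgeR adjusted p = 0.0107). For *Gsn* the interaction was 0.53 (edgeR adjusted p = 0.993), so its larger change in adventitial fibroblasts was not distinguishable from that in alveolar fibroblasts.

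**Figure D5:**
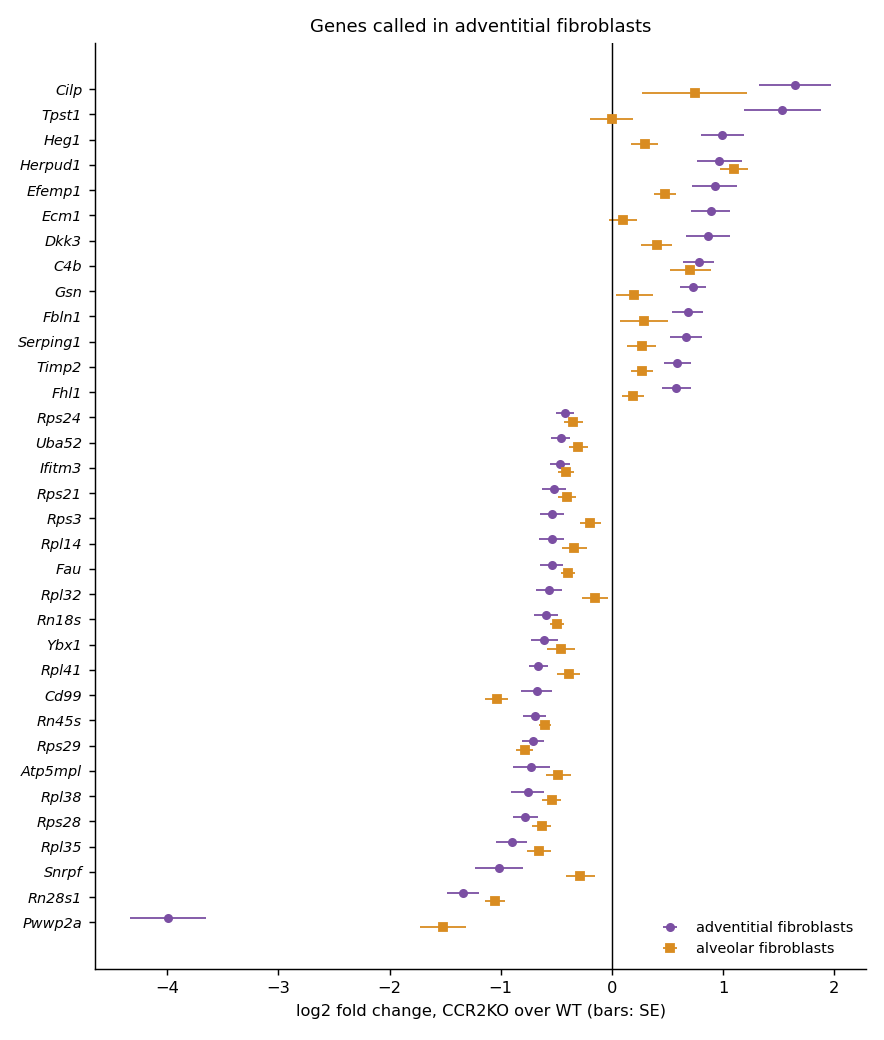
Log2 fold change of CCR2KO over WT in adventitial fibroblasts (circles) and alveolar fibroblasts (squares), with bars of 1 SE, for most of the called genes; *Igha*, *Igkc*, *C4a*, *Ly6c2*, *Ccl9* and *Gm32885* are among those left out. Nearly all pairs lay on the same side of 0, *Tpst1* lay at 0.00 in alveolar fibroblasts, and *Pwwp2a* was apart at -3.99 and -1.52.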

How the data were processed

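The deposited tables hold whole-number counts per gene and cell, with no normalization, per the file headers and values. The median nonzero count was 9 in WT and 11 in CCR2KO, so each deposited count was taken as a read, not a molecule, and its precision covers counting error only. The submitters' processing notes name GRCm38 and the tools Bowtie2 2.4.2, cutadapt 2.10 and R 3.6.3; the counting rule and annotation are not given in the sources used here. Cells that the authors named doublet (531 in CCR2KO, 680 in WT) and 2 columns without a tag name were not used, and no doublet caller was run.

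Cells were kept if they had 200 or more detected genes and no more than 25% of reads from mitochondrial genes. The members, gene lists and tests were chosen with earlier results of these data known. Reads were summed per tag over the chosen cells, for tags with at least 10 such cells, and tested with edgeR 4.0.16 (quasi-likelihood test, filterByExpr, TMM, Benjamini-Hochberg adjustment at 0.05; R 4.3.3); the comparison of fibroblast kinds and the interaction had the tag as a block. The gene test was tested on simulated data. Shares and detected genes were compared with two-sided exact permutation tests over tags (scipy 1.17.1). Named genes were called members of the lists, and the 12 genes with the largest change per direction among called genes at 20 CPM (genotypes) or 50 CPM (kinds). Tag numbers shared by the libraries were not taken as pairs. Alternatives were DESeq2 1.42.0 or its size factors, other filters, thinned cells, cells with other-lineage reads left out, the tag number as block and each tag left out. Gene positions are from GRCm38. Values of some genes are not reported here.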

Additional observations from a re-analysis of the deposited data

Results flagged for a closer look

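Chance alone marks about 1 in 20 groups as holding a sample far from the others, and 154 groups were examined, over 75 genes and 2 measures per tag. In 12 of them 1 tag stood apart, on the log2(CPM + 1) scale for genes. Among CCR2KO tags these were *Pi16* at 368 CPM in tag 5, *Apod* at 1453 CPM in tag 3, *Fau* at 973 CPM and *Cilp* at 201 CPM in tag 2, *Gm32885* at 3.87 CPM and *Ccl8* at 336 CPM in tag 5, and *Ccl7* at 163 CPM in tag 6. Among WT tags they were *Ccl11* at 172 CPM in tag 7, *Igha* at 0.295 CPM in tag 9, *Rpl14* at 1054.5 CPM and *Cxcl13* at 34.0 CPM in tag 4, and *Saa3* at 15950 CPM in tag 5. *Igha* in WT tags (median 1.72 CPM) and *Gm32885* in CCR2KO tags (median 0 CPM) lay near the floor, where few reads can set a tag apart.

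The change of *Pwwp2a* between genotypes differed between the fibroblast kinds by -2.63 on the log2 scale, adventitial minus alveolar (edgeR adjusted p = 0.0107 for the interaction).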

How the results depend on the processing

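The difference in share kept its sign and stayed short of the threshold under all alternatives run, with 0.287 percentage points in thinned cells and 0.0719 to 0.263 with 1 tag left out. The difference in detected genes was -221 at 10000 reads and -161 to -137 with 1 tag left out. Of genes called between CCR2KO and WT, 41 in the main test, DESeq2's size factors in edgeR gave 41, its Wald test 84, no filter 48, a mean of at least 50 CPM 64, and thinned cells 19 of 1179 genes tested (11 higher, 8 lower). Without cells with reads of another lineage 1 gene of 5815 tested was called, over 4 CCR2KO and 3 WT tags; fewer cells and tags are part of that alternative, and the cause was not otherwise tested. Without cells with *Ptprc*, *Epcam* or *Pecam1* reads, chosen after seeing the data, 8 were called; with 1 tag left out, 30 to 47, and 22 of the 41 were called each time. Reversed values, all without cells with reads of another lineage, were -0.16 for *C4a*, -0.33 for *C4b*, -0.10 for *Cilp*, -0.16 for *Fhl1* and -0.021 for *Tpst1*. Over the 41 genes and their alternatives, 753 values kept direction and call, 252 kept direction only and 5 reversed.

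Genes called between adventitial and alveolar fibroblasts, 2930 in the main test, were 5362 by DESeq2 (989 higher, 4373 lower) and 1138 among genes averaging 50 CPM or more (551 higher, 587 lower). They were 1268 in CCR2KO tags alone, 1356 in WT tags alone, and 404 without cells with reads of another lineage. In that last alternative 1539 of the main calls were tested and 1386 kept their direction. The cause was not tested. The interaction gave 1 gene under both alternatives.

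Tags that share a number deviated together only in part. Their correlations lay between -0.067 and 0.178 in adventitial fibroblasts, where 3 of 8 tags correlated best with their own number. Over all cells the correlations lay between -0.105 and 0.661, with tags 4 and 6 below 0 and every other tag at 0.393 or more. Since not every pair was above 0.1 and no label ties the numbers to a shared source, they were not taken as pairs. With the tag number as a replicate block, 22 genes were called (8 higher, 14 lower), 18 of them among the 41; *Timp2*, *Fbln1*, *Efemp1*, *C4a*, *Herpud1*, *Dkk3*, *Tpst1*, *Fhl1*, *Ifitm3*, *Ly6c2* and *Gm32885* were among those not called. The share differed by 0.207 percentage points (exact p = 0.375).

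Depth limits low genes, since a tag holds few adventitial fibroblasts and single cells can supply most reads of a gene. Cells with reads of another lineage were kept in the main values.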
